A study of Mus musculus with 15 samples.

Results

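The genes of the interleukin 12 (IL-12) family and of interleukin 15 (IL-15) that were followed here are Il12a, Il23a, Il27, Ebi3, Il15 and Il15ra, measured in cultured mouse macrophages with and without the transcription factor gene Junb. They were chosen by name, as genes whose array probes carry a RefSeq accession that maps to these symbols. All 6 genes had a probe and passed the filter on dim probes, with 7 probes in all, among 20145 named genes with a probe, of which 14192 passed. Macrophages had been grown from bone marrow for a week in macrophage colony-stimulating factor (M-CSF). Wild type cells were labelled C57BL/6, with no Cre named. Knockout cells had the genotype Junb-fl/fl Lyz2-Cre+/+ on a C57BL/6 background, so they also carried Cre in both copies of Lyz2, the myeloid lysozyme gene whose locus drives the recombinase. Cells were left untreated or received 100 ng/ml lipopolysaccharide (LPS), a molecule of the outer membrane of Gram-negative bacteria, for 4 h. There were 4 arrays each of untreated wild type, LPS-treated wild type and untreated knockout cells, and 3 of LPS-treated knockout cells (replicates 2, 3 and 4). The replicates are wells. The number and age of the mice are not given in the sources used here, so p-values measure the spread between wells, which may be technical.

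IL-12 family cytokines are pairs of an alpha subunit, which resembles IL-6, and a beta subunit, which resembles a soluble receptor. Il12a encodes p35, the alpha subunit of IL-12 and, with Ebi3, of IL-35. Il23a encodes p19, the alpha subunit of IL-23. Both IL-12 and IL-23 use the p40 subunit encoded by Il12b, for which no probe could be named here. Il27 encodes p28, which pairs with Ebi3 to form IL-27. IL-15 is a cytokine of the common gamma chain family that sustains natural killer and memory CD8 T cells, and Il15ra, its high-affinity receptor chain, presents it on the surface of the producing cell. In macrophages and dendritic cells these genes are known targets of Toll-like receptor signalling through NF-kB, interferon regulatory factors (IRFs) and AP-1, the factor family to which Junb belongs.

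RefSeq promoter windows of the 250 bases before a start site (GRCm38.p6) were matched for 3 of the 6 genes, with 5 start sites in all. They were searched on both strands for AP-1 (TGANTCA), the cyclic AMP response element (TGACGTCA), the NF-kB consensus, the interferon-stimulated response element core and C/EBP (TTNNGNAA). The windows with a match are shown because the factors matched act downstream of LPS. Both lie on the plus strand, and the matched letters are in capitals.
Ebi3, chr17:55952373-55952622: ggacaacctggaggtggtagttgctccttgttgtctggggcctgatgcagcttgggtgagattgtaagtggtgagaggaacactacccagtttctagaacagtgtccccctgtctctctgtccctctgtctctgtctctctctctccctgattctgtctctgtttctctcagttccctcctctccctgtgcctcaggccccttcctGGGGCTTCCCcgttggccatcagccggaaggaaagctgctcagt
Il15ra, second start site, chr2:11705462-11705711: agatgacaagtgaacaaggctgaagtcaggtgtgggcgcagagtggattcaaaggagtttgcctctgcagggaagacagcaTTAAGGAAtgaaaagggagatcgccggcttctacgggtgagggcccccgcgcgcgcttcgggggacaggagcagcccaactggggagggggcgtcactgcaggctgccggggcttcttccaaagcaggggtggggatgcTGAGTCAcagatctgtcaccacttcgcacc
The Ebi3 window holds an NF-kB consensus match, GGGGCTTCCC, at positions -44 to -35 from the start. The window of the second Il15ra start holds an AP-1 match, TGAGTCA, at -30 to -24 and a C/EBP match, TTAAGGAA, at -169 to -162. None of the motifs was found in both Il12a windows or in the window of the first Il15ra start. Of 32851 promoter windows of this length, 6.75% hold the AP-1 motif, 1.55% the cyclic AMP response element, 3.9% the NF-kB consensus, 2.98% the interferon element and 36.8% the C/EBP motif. A match describes letters and not binding, which was not measured here.

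Levels are given as log2 of a probe's processed signal over the 75th percentile of its array, so that 0 is the 75th percentile; a floor was set at -4.52. The 75th percentile of the processed signal ran from 481.8 to 1490, and 51.0% to 63.2% of spots were well above background. The Junb probe cleared the background on each of the 8 wild type arrays and on 0 of 7 knockout arrays. All knockout arrays lay on one slide and all wild type arrays on another, so in any comparison between genotypes the slide and the genotype cannot be told apart. Within each slide the untreated arrays lay in one row and the LPS arrays in the other, so row and LPS treatment cannot be told apart either. Of the macrophage marker list, 7 of 8 genes had a probe, all above background in every group, with summed signals of 458 to 2320 times the 75th percentile. Lyz2 was 406 to 718 times it in wild type cells and 1.28 to 5.28 times it in knockout cells, whose Lyz2 copies carry Cre. Of the dendritic cell list, 7 of 8 had a probe. Its sum of 101 to 321 came almost wholly from Siglech, and Clec9a was not above background in any group. T and NK cell sums were at most 1.76. Cd3e, Cd4, Cd2 and Klrb1c were above background in every group, and Cd3g, Cd8a and Ncr1 in none. B cell sums were at most 0.783. Cd79a and Cd79b were above background on every array, and Pax5 was not above background in any group. With LPS these 2 went opposite ways. Cd79b fell 7.87-fold in wild type cells and 4.02-fold in the knockout, while Cd79a rose 1.56-fold and 1.81-fold. The stromal list summed to 1.93 to 7.66. In bulk RNA, fewer cells of a type and less RNA per cell cannot be told apart.

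LPS raised all 6 genes in wild type cells. Il12a and Il23a passed the filter on dim probes through their LPS groups alone. The filter therefore favoured their rise from the floor, which adds no support to the count of 6. In wild type cells 60.5% of the 14192 genes were called, 34.9% higher and 25.5% lower. The median change was 5.35 over the 6 genes and 0.14 over all genes. LPS raised all 6 in knockout cells too, with the same limit for Il12a and Il23a. There 59.9% of genes were called, 32.5% higher and 27.5% lower, and the medians were 3.85 and 0.19. Calls rest on limma's moderated test over all 15 arrays, with Benjamini-Hochberg adjusted p-values over the 14192 genes and a threshold of 0.05. Ranked by the size of the rise in wild type cells, Il27 was number 20, Il15ra 75, Il15 113 and Ebi3 1727 of 14192. In knockout cells the ranks were 32 for Il27, 71 for Il15, 157 for Il15ra and 1353 for Ebi3. Il12a and Il23a are given no rank, and they enter the medians at the floor, because their untreated arrays lay at it and the floor sets the size of their rises. With the floor doubled, the wild type rise of Il12a was 0.85. With quantile normalisation in place of the 75th percentile, the median change of all genes was -0.13 in wild type and -0.10 in knockout cells, and all 6 genes still rose in both genotypes.

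**Figure D1:**
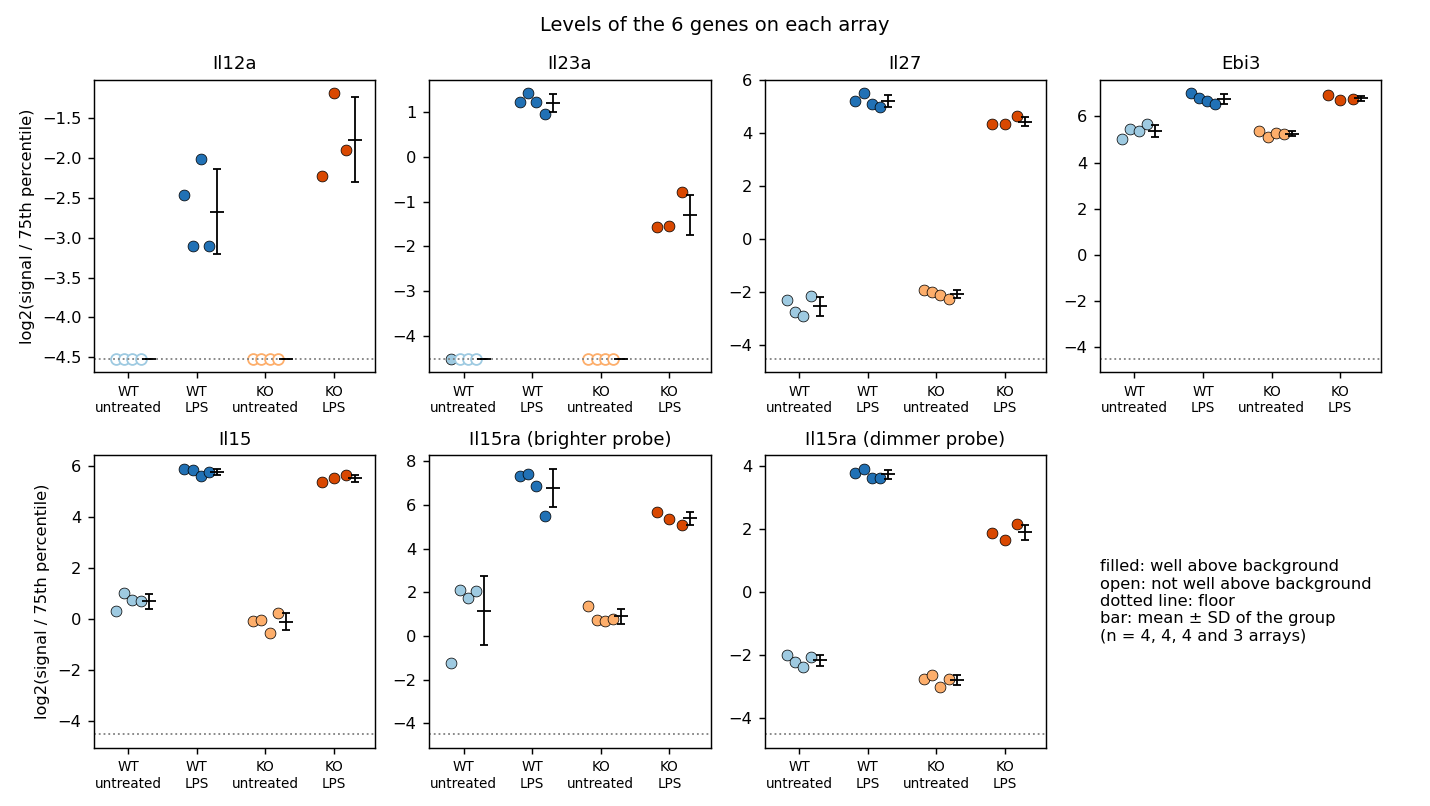
Level of each gene on each array, as log2 of the processed signal over the array's 75th percentile, by genotype and treatment; the bars give the mean and SD of 4, 4, 4 and 3 arrays, open points were not well above background and the dotted line is the floor. LPS points lie above untreated points in every panel. In Il23a, Il27 and the dimmer Il15ra probe the LPS points of knockout cells all lie below those of wild type cells.

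Among the alpha subunits, Il23a differed most between the genotypes. Untreated, its signal was 41.2, 11.7, 9.99 and 21.4 on the wild type arrays, of which only the first was well above background, and 6.5 to 12.8 on the knockout arrays, none of them well above background. With LPS the level was 1.23, 1.43, 1.24 and 0.95 on the wild type arrays and -1.58, -1.54 and -0.78 on the knockout arrays. Every wild type LPS array therefore lay above every knockout LPS array, and all untreated arrays lay at the floor. Relative to the floor, Il23a rose by 5.73 ± 0.16 (SE; adjusted p = 1.2e-12) in wild type cells, which is 53.2-fold, and by 3.22 ± 0.17 (adjusted p = 1.2e-09), or 9.31-fold, in knockout cells. Both are lower limits set by the same floor. The untreated arrays, all at the floor, add no spread to the fit. The SEs and p-values of Il23a are therefore too small and its intervals too narrow. Relative to the floor, the rise was smaller in knockout cells, with a difference of -2.51 ± 0.23 (95% interval -3.005 to -2.02, adjusted p = 1.3e-05). Since both untreated groups sat at the floor, this value equals the difference between the LPS levels, where Il23a was 5.71-fold lower in knockout cells (-2.51 ± 0.17, adjusted p = 1.7e-07).

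Il12a, the p35 subunit, was low throughout. No untreated array of either genotype was well above background, with signals from -4.3 to 4.99. With LPS the level was -2.46, -3.10, -2.01 and -3.10 in wild type cells and -2.23, -1.18 and -1.90 in knockout cells. The genotypes overlapped with LPS, since wild type replicate 3 lay above knockout replicate 2. Relative to the floor, Il12a rose 3.6-fold in wild type cells (1.85 ± 0.24, adjusted p = 1.2e-05) and 6.73-fold in knockout cells (2.75 ± 0.26, adjusted p = 5.2e-07), both lower limits set by the floor. The level with LPS was 1.87-fold higher in knockout cells (0.90 ± 0.26, adjusted p = 0.018). This call was lost without wild type LPS replicate 2 (0.76, adjusted p = 0.056), without knockout LPS replicate 3 (0.61, adjusted p = 0.11), and without the 3 arrays of widest spread (0.76, adjusted p = 0.055). It was also lost with quantile normalisation (0.92, adjusted p = 0.051), with normexp (0.66, adjusted p = 0.073), and in the deposited table (0.70, adjusted p = 0.15, or 0.12 without its repeated values). The fit on the compared groups, which leaves the untreated arrays out, did not make the call either (0.90, adjusted p = 0.105). Of 10 alternatives other than single arrays left out, 4 kept it. The difference of the rises, 0.90 ± 0.35 (95% interval 0.14 to 1.66), did not pass (adjusted p = 0.13), but did without wild type LPS replicate 3 (1.12, adjusted p = 0.039).

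Il27, the p28 subunit of IL-27, rose most of the 6 genes in both genotypes. Its untreated level was -2.32, -2.77, -2.91 and -2.16 in wild type cells and -1.93, -2.01, -2.12 and -2.25 in knockout cells, which overlap. With LPS it reached 5.22, 5.52, 5.09 and 4.997 in wild type cells and 4.34, 4.36 and 4.64 in knockout cells, which do not overlap. The rise was 7.74 ± 0.17 (215-fold, adjusted p = 1.7e-13) in wild type and 6.52 ± 0.18 (91.8-fold, adjusted p = 2.7e-12) in knockout cells. It was smaller in knockout cells, with a difference of -1.22 ± 0.25 (95% interval -1.76 to -0.69, adjusted p = 0.0068). That call was lost with a replicate block within genotype (-1.17, adjusted p = 0.10). With LPS, Il27 was 1.7-fold lower in knockout cells (-0.76 ± 0.18, adjusted p = 0.0066), while untreated it was 0.46 ± 0.17 higher without passing (adjusted p = 0.078).

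Ebi3, the beta subunit of IL-27 and IL-35, was bright on every array and changed least. Untreated levels were 5.01, 5.45, 5.35 and 5.67 in wild type and 5.38, 5.12, 5.26 and 5.24 in knockout cells. With LPS they were 7.02, 6.82, 6.67 and 6.54 in wild type and 6.92, 6.71 and 6.75 in knockout cells. LPS arrays lay above untreated arrays in both genotypes, and the genotypes overlapped within each treatment. Ebi3 rose 2.62-fold in wild type (1.39 ± 0.14, adjusted p = 9.3e-07) and 2.91-fold in knockout cells (1.54 ± 0.15, adjusted p = 8.2e-07). The difference of the rises was 0.15 ± 0.21 (adjusted p = 0.68), with a 95% interval of -0.29 to 0.60. With LPS the genotypes differed by 0.03 ± 0.15 (adjusted p = 0.91, 95% interval -0.29 to 0.36), whose sign turned under several alternatives.

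Il15, the cytokine gene, was lower in untreated knockout cells and near the wild type level with LPS. Untreated levels were 0.30, 1.03, 0.76 and 0.70 in wild type and -0.055, -0.013, -0.56 and 0.25 in knockout cells. Each untreated knockout array lay below each untreated wild type array. LPS levels were 5.90, 5.83, 5.61 and 5.76 in wild type and 5.36, 5.54 and 5.65 in knockout cells, which overlap. Untreated, Il15 was 1.73-fold lower in knockout cells (-0.79 ± 0.18, adjusted p = 0.0063), a call that the fit on the compared groups alone did not make (adjusted p = 0.051). Nor was it called in the deposited table (-0.55, adjusted p = 0.84, or 0.063 without its repeated values). The rise was 33.8-fold in wild type (5.08 ± 0.18, adjusted p = 1.3e-11) and 48.8-fold in knockout cells (5.61 ± 0.19, adjusted p = 1.5e-11). Neither the difference of the rises (0.53 ± 0.26, 95% interval -0.022 to 1.08, adjusted p = 0.22) nor the LPS levels (-0.26 ± 0.19, 95% interval -0.67 to 0.15, adjusted p = 0.33) passed.

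Il15ra, which presents IL-15, had 2 probes that were called differently. On the brighter probe, untreated levels were -1.23, 2.11, 1.73 and 2.04 in wild type and 1.38, 0.74, 0.66 and 0.79 in knockout cells. With LPS they were 7.32, 7.43, 6.87 and 5.51 in wild type and 5.69, 5.36 and 5.10 in knockout cells. Wild type untreated replicate 1 and wild type LPS replicate 4 lay far below the others of their groups, and both are among the 3 arrays of widest spread. The unscaled signals of wild type LPS replicates 1 to 3 were 122300, 125800 and 124300, although the 75th percentiles of those arrays ran from 731 to 1063.

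The dimmer Il15ra probe did not show those arrays apart. Its untreated levels were -1.999, -2.21, -2.39 and -2.05 in wild type and -2.76, -2.63, -3.01 and -2.76 in knockout cells. With LPS they were 3.78, 3.90, 3.596 and 3.61 in wild type and 1.88, 1.66 and 2.14 in knockout cells. On this probe the genotypes overlapped under neither treatment. On the brighter probe Il15ra rose by 5.62 ± 0.63 (adjusted p = 2.7e-06) in wild type cells and by 4.49 ± 0.68 (adjusted p = 5.6e-05) in the knockout; on the dimmer probe the rises were 5.88 ± 0.13 (adjusted p = 2.3e-13) and 4.68 ± 0.14 (adjusted p = 5.8e-12). The LPS level differed between the genotypes by -1.40 ± 0.68 on the brighter probe, which did not pass (adjusted p = 0.14, 95% interval -2.86 to 0.06). It was lower in knockout cells on the dimmer probe (-1.83 ± 0.14, adjusted p = 7.2e-07). Without the 3 arrays of widest spread the brighter probe gave -1.82 (adjusted p = 1.3e-04). The difference of the rises was -1.13 ± 0.93 (adjusted p = 0.49) on the brighter and -1.20 ± 0.20 (adjusted p = 0.0015) on the dimmer probe. Without those 3 arrays the brighter probe gave -0.83 for that difference (adjusted p = 0.093). With single arrays left out it ran from -1.55 without wild type LPS replicate 4 to -0.34 without wild type untreated replicate 1. Untreated, the values were -0.27 ± 0.63 (adjusted p = 0.82) and -0.63 ± 0.13 (adjusted p = 0.0046).

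Across the genotypes, 2 of the 6 genes, Il23a and Il27, were called as rising less in knockout cells. For Il23a, with both untreated groups at the floor, this repeats the comparison of the LPS levels. The difference of the responses was called for 10.1% of all genes, and for 7.15% it was lower. None rose more, against 2.9% of all genes. With the dimmer Il15ra probe 3 rose less, Il15ra among them, and with a replicate block within genotype 1 did, Il23a. Among untreated cells, where 17.7% of all genes were called, 1 of the 6, Il15, was lower in the knockout (5.83% of all genes) and none was higher (11.9% of all genes). With LPS, where 30.8% of all genes were called, Il23a and Il27 were lower (17.1% of all genes) and Il12a was higher (13.6% of all genes), the latter under 4 of the 10 alternatives above. Il15ra was called lower there on its dimmer probe. The medians for the LPS levels were -0.51 over the 6 genes and 0.01 over all genes. The order of the 4 groups was wild type LPS, knockout LPS and then the untreated groups for Il23a and Il27. For Il12a knockout LPS came first. For Ebi3 neither the LPS groups nor the untreated groups passed the test of their difference. For Il15 the LPS groups did not pass the test of their difference, and untreated wild type came before untreated knockout.

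**Figure D2:**
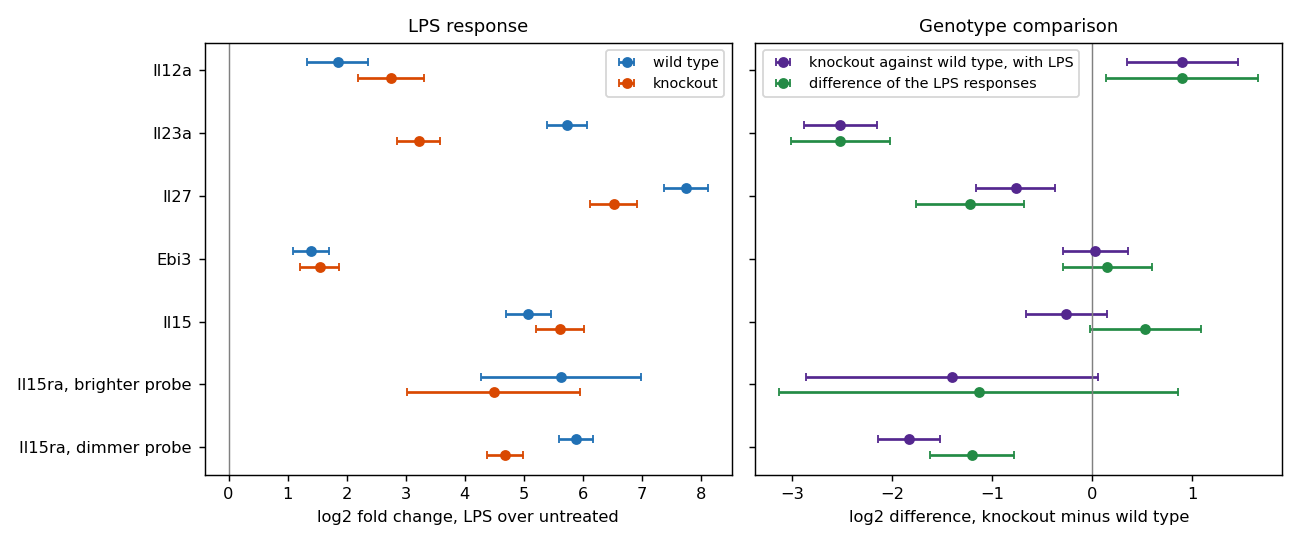
Fitted log2 changes of each gene with 95% intervals from limma's fit, for the LPS response in each genotype and for the comparisons between genotypes. All LPS responses lie above 0. The intervals of the difference exclude 0 on the negative side for Il23a (-2.51), Il27 (-1.22) and the dimmer Il15ra probe (-1.20). That of the brighter Il15ra probe does not. For Il12a and Il23a, whose untreated arrays all lie at the floor, the intervals are too narrow. The Il23a difference repeats its comparison with LPS.

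The summed signal of the neutrophil marker list (6 of 7 genes with a probe) was lower with LPS in knockout than in wild type cells. On LPS arrays of wild type cells it was 43.1 to 57.9 times the 75th percentile, against 13.7 to 16.4 times on those of knockout cells. Untreated, the ranges were 5.93 to 10.1 and 5.06 to 5.91. Nearly all of it was S100a8, a calcium-binding protein gene of myeloid cells, so the sum describes that gene and not the list. S100a9 was above background on every wild type array and on no knockout array, with and without LPS. Elane was not called between the genotypes with LPS (-0.02 ± 0.14, adjusted p = 0.95). Mpo and Cxcr2 were not above background in any group. The part of these markers in the results was not tested.

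Ratios taken within an array do not depend on the array's scaling where both genes lie above the floor, which untreated Il12a did not. They were tested for 3 pairs (Il27 over Ebi3, Il12a over Ebi3 and Il15 over Il15ra) in 4 comparisons, with exact two-sided permutation tests over arrays, for which the smallest possible p is 0.0286. With LPS the log2 ratio of Il27 to Ebi3 was higher by 6.35 in wild type cells and by 4.98 in the knockout. With LPS it was -1.56 ± 0.21 (SD, n = 4) in wild type and -2.35 ± 0.23 (SD, n = 3) in knockout cells, a difference of -0.79 with no overlap between arrays. Since signals of different probes are not comparable, only the change of a ratio has meaning. None of the 12 tests passed after adjustment; 5 had the smallest possible p of 0.0286 by the exact test (adjusted 0.069), including these 3. With the dimmer Il15ra probe, the LPS change of Il15 over Il15ra was -0.81 in wild type cells and 0.93 in the knockout. With LPS that ratio was higher in knockout cells by 1.57 on the dimmer probe and by 1.14 on the brighter one. In that version, chosen after seeing the data, 7 of 12 exact tests passed (adjusted p = 0.049). Those among them of Il27 over Ebi3 and Il12a over Ebi3 do not use Il15ra and kept their values and their p of 0.0286. They passed only because more tests reached that p, which lowered the adjusted value.

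**Figure D3:**
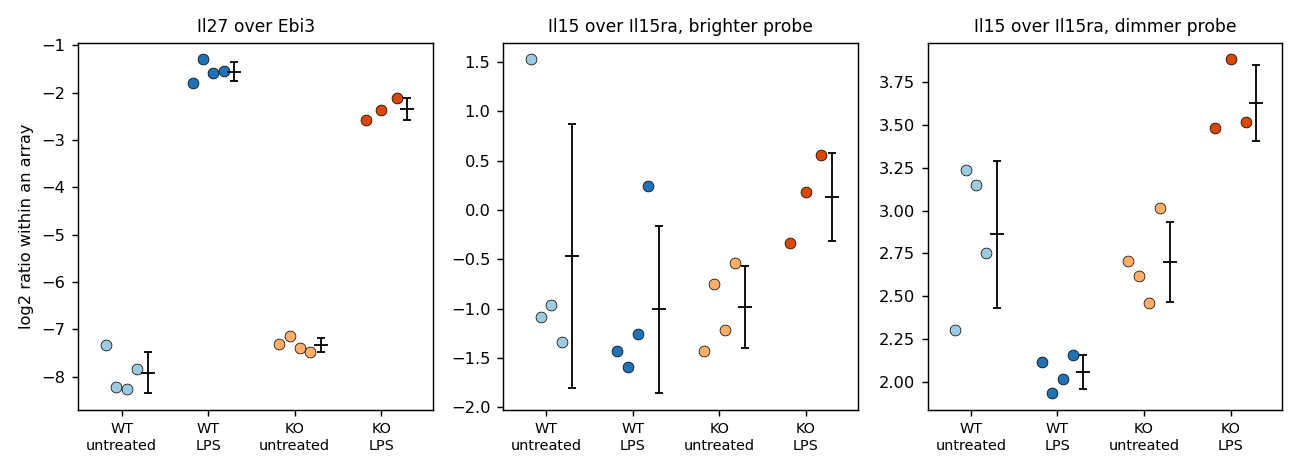
Within-array log2 ratios of Il27 to Ebi3 and of Il15 to Il15ra, the latter with each Il15ra probe, by group; points are arrays and bars give the mean and SD. The ratio of Il27 to Ebi3 with LPS is lower in knockout cells, and the brighter Il15ra probe shows 2 wild type arrays apart that the dimmer one does not.

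The surrounding pathway was described from a list of 53 genes, of which 44 passed the filter. Of these, 35 rose and 3 fell with LPS in wild type cells, and 31 rose and 3 fell in knockout cells. The matching shares of the 14192 genes were 34.9% higher and 25.5% lower in wild type, 32.5% higher and 27.5% lower in knockout cells. With quantile normalisation the counts on the list were 25 and 5 in wild type and 24 and 4 in knockout cells. The difference of the responses was called for 10.1% of all genes, 2.9% higher and 7.15% lower in the knockout. On the list it was called for 11: 2 higher and 9 lower, Junb itself among the lower. Il9 among the higher and Il23r among the lower passed the filter only through the group where they were high. With quantile normalisation 4 were higher and 6 lower, and in the deposited table without its repeated values 2 were higher and 2 lower of 34. With background corrected by normexp, 5 were called: Il12rb1 higher, and Il10, Irf8, Batf3 and Junb lower.

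Among the receptors, Il12rb1, the chain shared by the IL-12 and IL-23 receptors, fell by 2.26 ± 0.14 with LPS in wild type cells and fell by 0.98 ± 0.16 in the knockout. The difference of 1.27 ± 0.21 passed (adjusted p = 0.0019). Il23r, the specific chain of the IL-23 receptor, was not well above background on any untreated array, and its LPS signals were 74.6 to 151 on wild type arrays and 36.6 to 64.0 on knockout arrays, of which 2 of 3 were well above background. Its level with LPS was lower in knockout cells (-0.99 ± 0.10, adjusted p = 1.2e-05), a call that normexp did not make (adjusted p = 0.10). Il23r passed the filter on dim probes through the wild type LPS arrays alone, which favours a lower knockout level. Its untreated arrays, all at the floor, add no spread to the fit, so its SE and p-value are too small. Il2rg, the common gamma chain, rose by 1.64 and 1.16, and with LPS was lower in knockout cells (-0.73 ± 0.16, adjusted p = 0.0041). Il12rb2, the specific chain of the IL-12 receptor, rose by 1.17 ± 0.14 in wild type cells and by 0.84 ± 0.15 in the knockout, with a difference of -0.33 ± 0.20 that did not pass (adjusted p = 0.35). Il6st, the gp130 chain used by IL-27, was called in neither LPS response, and its level with LPS was lower in knockout cells (-0.63 ± 0.18, adjusted p = 0.020). Il2rb, the beta chain of the IL-15 receptor, did not pass the filter. Il27ra, the IL-27 receptor chain, stayed near the floor, with group means from -4.518 to -4.265. Its changes with LPS were 0.10 ± 0.15 in wild type and -0.001 ± 0.17 in knockout cells, neither called.

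Of the 9 kinases and STATs, 8 rose and 1 fell in wild type cells and 7 rose in knockout cells. Among the 14192 genes tested, LPS calls were 34.9% higher and 25.5% lower in wild type, 32.5% higher and 27.5% lower in knockout cells. With quantile normalisation 5 of the 9 rose and 1 fell in wild type cells, and 6 rose in the knockout. Normexp left the main counts as they were. In the deposited table without its repeated values, 5 of 8 rose and 1 fell in wild type cells, and 4 rose in the knockout. Stat3, which signals for IL-23 and IL-27, rose by 3.14 ± 0.21 in wild type cells and by 2.04 ± 0.23 in the knockout. That difference of -1.10 ± 0.31 passed (adjusted p = 0.039) but not with quantile normalisation (adjusted p = 0.094). Stat5a, a transducer of IL-15, rose by 3.17 ± 0.10 and 2.46 ± 0.11, with a difference of -0.71 ± 0.15 (adjusted p = 0.0092) that normexp did not call (adjusted p = 0.096). Stat4, the main transducer of IL-12, fell by 1.99 ± 0.43 in wild type cells, and its change in knockout cells, -0.88 ± 0.46, did not pass.

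Of the 14 transcription factors, 4 were called lower in the difference of the responses, Junb itself among them, and none higher. Over all genes 7.15% were lower and 2.9% higher. Irf8, a factor known to act on the Il12b and Il27 promoters, had wild type levels of 4.44 to 4.77 without LPS and of 4.90 to 5.28 with it. The knockout levels were 4.76 to 5.01 without LPS and 2.29 to 2.91 with it. Its fall of 2.24 ± 0.15 in knockout cells (adjusted p = 1.4e-08) and the difference of -2.72 ± 0.20 (adjusted p = 2.7e-06) passed. The rise of 0.49 in wild type cells turned to -0.22 with quantile normalisation. Batf3, an AP-1 family partner, rose by 1.55 ± 0.22 with LPS in wild type cells and changed by -0.14 ± 0.23 in knockout cells. The difference was -1.69 ± 0.32 (adjusted p = 0.0041). Untreated, Batf3 was already higher in knockout cells (1.175 ± 0.22, adjusted p = 0.0019). Its level with LPS was not called between the genotypes (-0.52 ± 0.23, adjusted p = 0.11). Irf5 differed by -0.79 ± 0.20 (adjusted p = 0.020), a call lost with quantile normalisation (adjusted p = 0.12). Irf1, an inducer of Il12a, Il27 and Il15, rose by 1.91 ± 0.13 and 2.45 ± 0.14, and the NF-kB genes Rel (2.52 and 2.93) and Rela (1.13 and 1.37) rose in both genotypes. The differences of these 3 did not pass (adjusted p of 0.085, 0.57 and 0.44). Irf7 was lower in knockout cells with and without LPS (-1.72 and -1.68), and rose by 3.55 and 3.50.

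All 9 regulators and partners rose in both genotypes, where 34.9% of all genes rose in wild type and 32.5% in knockout cells. With quantile normalisation 7 of 9 rose in each, with normexp 9 and 8, and in the deposited table without its repeated values 6 of 8 in each. Il10, the inhibitory cytokine that restrains production of IL-12 and IL-23, rose 221-fold in wild type and 12.9-fold in knockout cells. With LPS it was 5.52-fold lower in knockout cells (adjusted p = 2.3e-08). Untreated, Il10 was 3.1-fold higher in knockout cells (adjusted p = 1.1e-06), so the gap between the rises includes this higher starting level. Ifnb1, encoding interferon beta, which induces Il27 and Il15, rose by 5.19 ± 0.15 and 4.41 ± 0.16. Its untreated signal was well above background on each wild type array but on no knockout array, so the knockout rise is a lower limit and the difference of the rises depends on the floor. With LPS its level was lower in knockout cells (-1.39 ± 0.16, adjusted p = 2.4e-05). The feedback inhibitor Socs1 rose by 6.50 ± 0.18 and 6.996 ± 0.19. Of the other subunit genes, Il6 rose by 11.6 and 11.2, but its signals with LPS, 292200 to 335700, were close to constant across arrays, so the size is uncertain. Clcf1 was called in none of the 5 comparisons. Of the other common gamma chain cytokines, Il9 was well above background only on the 3 knockout LPS arrays, at signals of 38.8 to 66.4, and passed the filter through that group alone. Its difference of 0.79 ± 0.21 (adjusted p = 0.029) is against groups at or near the floor, and normexp did not call it (adjusted p = 0.54).

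**Figure D4:**
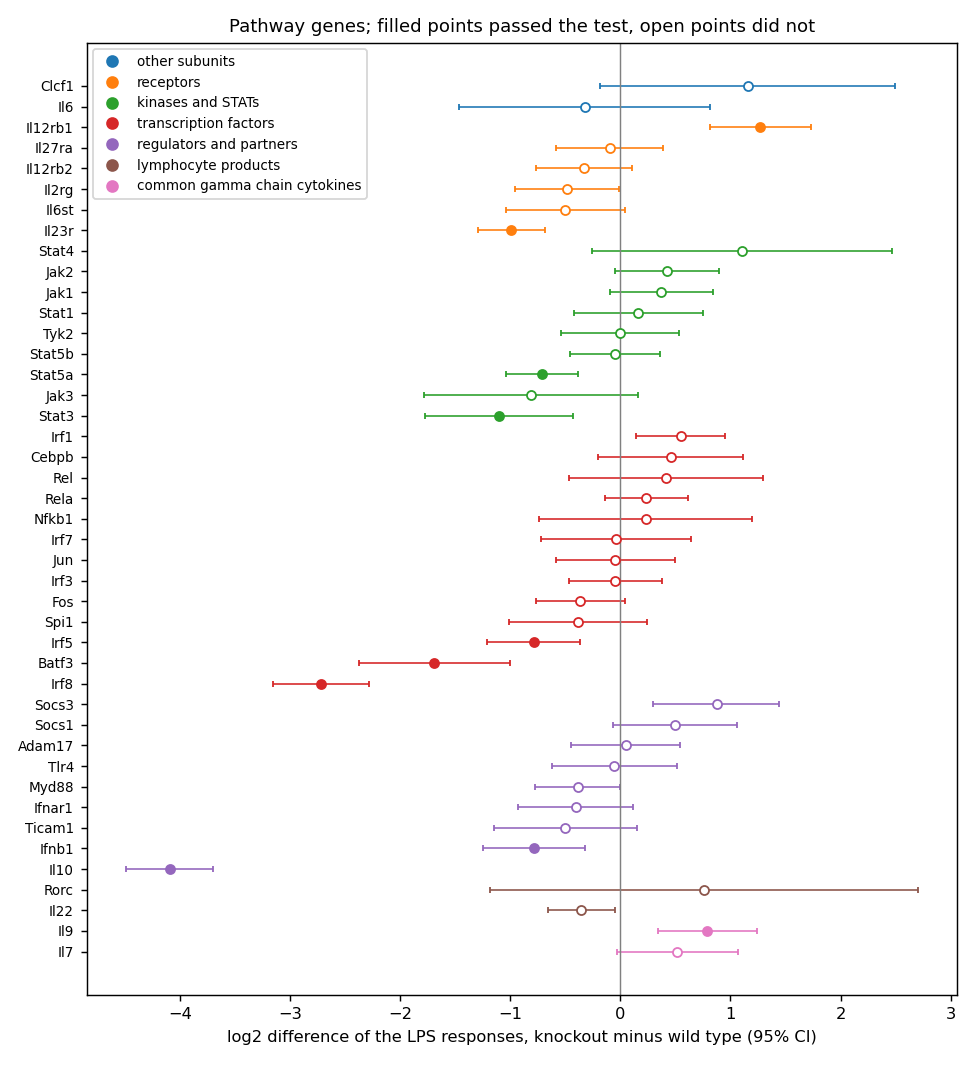
Difference of the LPS responses, knockout minus wild type, in log2 units with 95% intervals for 43 pathway genes by role; Junb, the deleted gene, is left out. Filled points passed the test (10 genes), among them Il9 and Il23r, which passed the filter on dim probes through a single group. Il10 (-4.09), Irf8 (-2.72) and Batf3 (-1.69) are the lowest, and Il12rb1 (1.27) is the highest of those that passed.

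For each of the 6 genes, the genes with the most similar levels over the 15 arrays were taken by Pearson's r among 13525 genes. The points share their treatment groups, so r is a description only. For Il23a these were Ccno, Tnc and Dusp5 (r = 0.998 each). For Il27 they were Upp1 (0.998), C130026I21Rik (0.997) and Tnfsf4 (0.997), and for Il15 Cxcl2 (0.998), Herc6 (0.998) and Ifi213 (0.997). For Il12a they were Txk (0.976), Taf15 (0.975) and Mir17hg (0.974). For Ebi3 they were 1110038F14Rik (0.995), Snf8 (0.993) and Ppp2r2d (0.992), and for Il15ra on the brighter probe Mtfr2 (0.994), Hemgn (0.993) and Septin3 (0.993). Among the 6 genes themselves r ran from 0.785 (Il12a with Il23a) to 0.982 (Il27 with Il15).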

How the data were processed

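Total RNA of 15 cultures was measured on single-colour Agilent arrays, amplified and labelled with Cy3 per the labels' protocols. The deposited scanner files hold a processed signal per spot, an intensity on a linear scale after background subtraction by Agilent Feature Extraction 10.7.3.1, per the file headers. The signals were not scaled between arrays. The deposited value table holds log2 values, and its scaling is not given in the sources used here; in some of its columns one value is shared by many features.

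The processed signal was divided by each array's 75th percentile, floored at 0.0436 of it, and taken to log2. Outlier spots were set missing (4827 spots), spots of a probe averaged, and probes named by RefSeq accession (26582 of 55681 probes). Probes were kept if 3 or more arrays of a group were well above background, and a gene was represented by its brightest probe (14192 genes). Group means over 15 arrays were fitted with limma 3.58.1 in R 4.3.3, and p-values adjusted by Benjamini-Hochberg at 0.05; the procedure was tested on simulated data. Promoters come from RefSeq. The number of value columns that could not be assigned to a sample was 0.

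The 6 genes were always named. Pathway genes were taken from a list, given by counts, with values for those called in the difference of the responses and for receptors and subunits; Stat4, Irf1, Irf7, Rel, Rela and Socs1 fall outside this rule and were chosen after their values were seen. One listed gene is not reported here. Likeness was Pearson's r, with the 3 highest genes named. The genes and lists were chosen with earlier results of these data known. Replicate numbers were not used as pairs in the main fit. Same-numbered arrays of a genotype had correlations of deviations from -0.54 to 0.56 over 7 pairs. Differently numbered ones ran from -0.53 to 0.66 over 21 pairs. So few and scattered values cannot decide whether the numbers pair the samples. Alternatives were quantile normalisation, normexp, the deposited table, no filter on dim probes, a doubled floor, the mean of probes, a replicate block, a fit on the compared groups, leaving out each array and, chosen after seeing the data, leaving out the 3 arrays of widest spread, the other Il15ra probe and removing the repeated values of the deposited table. The number of arrays limits the precision.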

Additional observations from a re-analysis of the deposited data

Results flagged for a closer look

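On the brighter Il15ra probe, wild type untreated replicate 1 had a level of -1.22, and its gap to the nearest of the other 3 arrays was 0.885 of the group's range, beyond the critical value for 4 samples; chance gives such a gap in a small share of groups. The dimmer Il15ra probe showed no such array. The LPS response of Il27 differed between the genotypes by -1.22, by the test of the difference itself. For Il23a the value was -2.51, but both untreated groups lay at the floor. That value therefore repeats the comparison of the LPS levels and is no separate test of the responses.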

How the results depend on the processing

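Both LPS responses of all 6 genes kept their direction under every alternative that measured them. For Il12a and Il23a the filter on dim probes favoured that direction. With the deposited table, which lists 5 of the genes (not Il27), 3 passed in wild type cells, 1 in the difference of the responses, 0 in untreated cells and 1 with LPS; without its repeated values these counts were 5, 1, 0 and 1. For untreated cells, where 1 gene was called, the count was 2 with quantile normalisation, without the 3 arrays of widest spread and with the other Il15ra probe, and 0 in the fit on the compared groups. Leaving out single arrays gave 1 to 2 calls in untreated cells, 2 to 4 with LPS, and 2 to 3 in the difference. With a replicate block within genotype the difference count was 1, as Il27 gave -1.17 (adjusted p = 0.10); the block over all arrays changed no member's call. With the other Il15ra probe 7 of the ratio tests passed in place of 0. Those of pairs without Il15ra were unchanged in value and passed through the adjustment alone.

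Signs turned for the following values. For Ebi3 these were the difference of the responses (-0.071 with normexp, -0.055 in the deposited table without repeated values), the untreated comparison (0.12 and 0.028) and the comparison with LPS (-0.027 in both versions of the deposited table, -0.041 without wild type LPS replicate 4 and without the 3 arrays, -0.0299 without knockout LPS replicate 2). For Il15ra untreated, the values were 0.046 and 0.021 without wild type untreated replicates 2 and 4, in a range from -1.07 over single arrays left out. Il15 with LPS was 1.51 in the deposited table, where its level on wild type LPS replicate 3 is the repeated value. Il12a over Ebi3 in wild type cells was -0.54 with the floor doubled. Without wild type untreated replicate 1, Il15 over Il15ra was 0.12 for LPS in wild type and 0.14 between untreated genotypes; over single arrays left out these ranged from -0.96 and -0.81. The untreated value was 0.22 without the 3 arrays. Their causes were not tested.

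Over all genes, the difference of the responses was called for 1427, against 792 with normexp, 568 in the deposited table (709 without its repeated values), 931 without knockout LPS replicate 3, 384 with the replicate block within genotype and 2233 without the 3 arrays. Untreated, 2515 genes were called, against 1197 in the deposited table (1516 without its repeated values); with LPS 4365, against 2728 there and 2867 without knockout LPS replicate 3. The share of rises among calls with LPS was 57.8% in wild type and 54.2% in knockout cells, against 41.6% and 37.0% with quantile normalisation.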
